A study of Mus musculus with 9 samples.

Results

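The genes described here encode the constitutive proteasome, the protease that every cell uses to break down proteins tagged with ubiquitin. They were chosen by name: every probe set to which the array annotation gives a single gene symbol made of Psma, Psmb, Psmc or Psmd and a number, without the immunoproteasome subunits Psmb8, Psmb9 and Psmb10. This rule uses no measured value. It found 74 probe sets for 36 genes, among 34945 probe sets for 18193 genes on the array. Of these, 34 genes had a probe set with a call of present on every array of some day, and they entered the tests with 11796 genes in all. Psma8, an alpha subunit of the testis, and Psmb11, a beta subunit of the thymus, did not pass, with signals of 12.3 to 64.0 and 2.23 to 44.6, and calls of present on 2 and 0 of the 9 arrays.

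The arrays measured RNA of stromal vascular fractions (SVFs), the cells left when adipocytes are removed from digested fat, taken from the inguinal fat of wild type Balb/c mice of 10 weeks. There were 3 mice on each of days 0, 1 and 3, and a different set of mice on each day. The labels name priming and the day after surgical injury for all 3 groups, and day 0 is taken here as the nonprimed group. The study's methods use priming for injury, ischemia or both. Its results tie the expression profile to both joined, and the labels name injury alone. In such mixed samples, fewer cells of a type and less RNA per cell cannot be told apart. Values are MAS5 signals, a summary of probe brightness, which the authors scaled to the same trimmed mean of 500 on every array. Changes are differences of mean log2 signals with limma's standard error (SE), n = 3 mice a day, and a gene was called when its adjusted p was under 0.05.

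The proteasome is built of a barrel, the 20S core, and caps, the 19S particles, which sit on its ends. The outer alpha rings of the barrel form its gate and the inner beta rings hold the protease sites. In the cap, the base has a ring of ATPases that unfold substrates and push them through the gate, and the lid removes the ubiquitin chain. The particle needs its subunits in fixed ratios, and in mammals their genes are known to respond together to the transcription factor Nfe2l1 when proteasome activity falls. In injured tissue the particle also handles damaged proteins and takes part in antigen presentation and NF-kB signaling.

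As a check of the samples, markers of adipose progenitors such as Pdgfra and of endothelium such as Pecam1 were present on all 9 arrays. Of the adipocyte markers, Adipoq, Lipe and Pnpla2 were also present on 9 of 9 arrays and Cidec on 8, while the hormones Lep and Retn were present on 0. An array had 24106 to 26299 present calls for its 45101 probe sets, and the probes at the 3' end of actin were 1.15 to 1.32 times as bright as those at its 5' end. The same ratio for Gapdh moved with the days without overlap from day 0, at 0.537 to 0.592 on day 0, 0.671 to 0.693 on day 1 and 0.633 to 0.709 on day 3. Arrays of the same day correlated at 0.971 to 0.988 and arrays of different days at 0.902 to 0.971. The summed signal of 8 tested neutrophil markers, of 12 listed, was 1970 to 2140 on day 0, 43545 to 75170 on day 1 and 9706 to 21803 on day 3. That of 11 monocyte and macrophage markers, of 12 listed, was 57885 to 68498, 83587 to 103387 and 87755 to 102731 on the same days. That of 7 T cell markers, of 9 listed, was 32696 to 38830, 9938 to 28091 and 13105 to 21384. On days 1 and 3 the summed markers of dendritic cells, B cells, endothelium, adipose progenitors and adipocytes also lay below day 0 on every array, those of mast cells on day 3 and those of pericytes and smooth muscle on day 1, and those of NK cells lay above it on day 1. That of 8 endothelial markers, for example, was 17317 to 22459, 12704 to 14000 and 14282 to 16428. That of 4 adipocyte markers, of 7 listed, was 2021 to 2534, 1483 to 1586 and 1379 to 1617. Single genes did not all move with their sums. Of the macrophage list, Csf1r was called lower on day 1 (-0.47, adjusted p 0.00885) and 8 genes higher. On day 3 Itgax of the dendritic list was called higher (0.74, adjusted p 0.0131) and 3 genes lower. Col1a1 of the progenitor list was called higher that day (1.15, adjusted p 0.00344) and 4 genes lower. Of the NK list, Ncr1 and Prf1 had day 1 changes of -0.32 and -0.70, not called, and 3 genes were called higher. The part of these cell types and of the Gapdh ratio in the changes below was not tested.

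On day 1 the proteasome genes rose as a group, by modest amounts. Of the 34 genes, 29 were called higher than on day 0 and 0 were called lower. Among all genes tested, 10.7% were called higher and 17.9% lower. The median change of the 34 genes was 0.54 on the log2 scale, a 1.46-fold rise, and their changes ran from -0.01 to 0.89. The median over all genes was -0.13, and the changes of the proteasome genes had an SD of 0.21 against 0.67 for all genes. For 21 of the 34 genes the 3 arrays of day 1 all lay above the 3 of day 0, which was so for 13.8% of all genes. With its brightest probe set, no gene of the group reached a 2-fold change. In the tenth of genes with the highest signal, which holds 15 of these genes, 265 of 1180 genes were called higher, 161 were called lower and the median change was 0.05.

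On day 3 fewer of them were called, with a lower median change. Of the 34 genes, 10 were called higher than on day 0 and 0 lower, where 13.6% of all genes were called higher and 12.5% lower. Their median change was 0.31, a 1.24-fold rise, against -0.03 for all genes, and 18 genes did not overlap between the days, a pattern found upward in 22.6% of all genes. The genes called were Psma1, Psma4, Psma5, Psmb5, Psmc1, Psmc2, Psmd2, Psmd3, Psmd11 and Psmd14. Day 3 lay below day 1 with a median change of -0.21, but only Psmb3 and Psmb4 were called lower and 0 genes were called higher. Among all genes 4.54% were called lower and 9.66% higher between these days. For 8 of the 34 genes all arrays of day 3 lay below those of day 1, against 11.5% of all genes. The comparisons of days 1 and 3 with day 0 share the day 0 arrays. The summed signal of 9 markers of proliferating cells, of 10 listed, was 4207 to 5307 on day 0, 4610 to 4732 on day 1 and 11584 to 12041 on day 3, and their part in the day 3 levels was not tested.

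**Figure D1:**
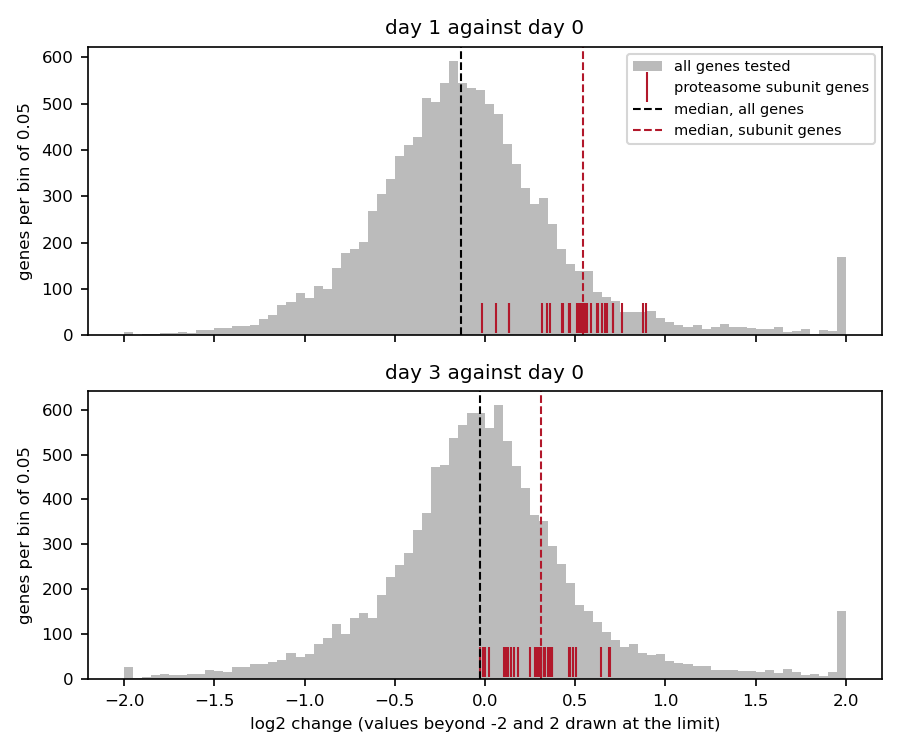
Histogram of the log2 changes of all 11796 genes tested (grey, genes per bin of 0.05) for day 1 and day 3 against day 0, with the 34 proteasome subunit genes as red ticks; dashed lines are the medians. On day 1 the red median stands at 0.54 and the black one at -0.13, and on day 3 they stand at 0.31 and -0.03.

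The arrays of a day did not move equally. The mean of the 34 genes, relative to the mean of day 0, was -0.09, 0.16 and -0.07 on the day 0 arrays of replicates 1, 2 and 3. On the day 1 arrays it was 0.62, 0.64 and 0.28, and on the day 3 arrays 0.29, 0.31 and 0.31. The third mouse of day 1 was the lowest of its day in all 6 groups of subunits, the second mouse of day 0 was the highest of its day in all 6, and the day 3 mice were close to each other. On the day 1 arrays 31, 34 and 21 genes lay above their highest day 0 value, and on the day 3 arrays 21, 21 and 26. The summed neutrophil markers on the 3 day 1 arrays, in the same order, were 75170, 69956 and 43545, the macrophage markers 103387, 99120 and 83587, and the shares of probe sets with a present call 53.7%, 53.4% and 56.7%. Some other lists did not set the third mouse apart. The T cell markers were 9938, 28091 and 27964, and the NK cell markers 4388, 3381 and 3664. The part of these differences in the levels of the proteasome genes was not tested.

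**Figure D2:**
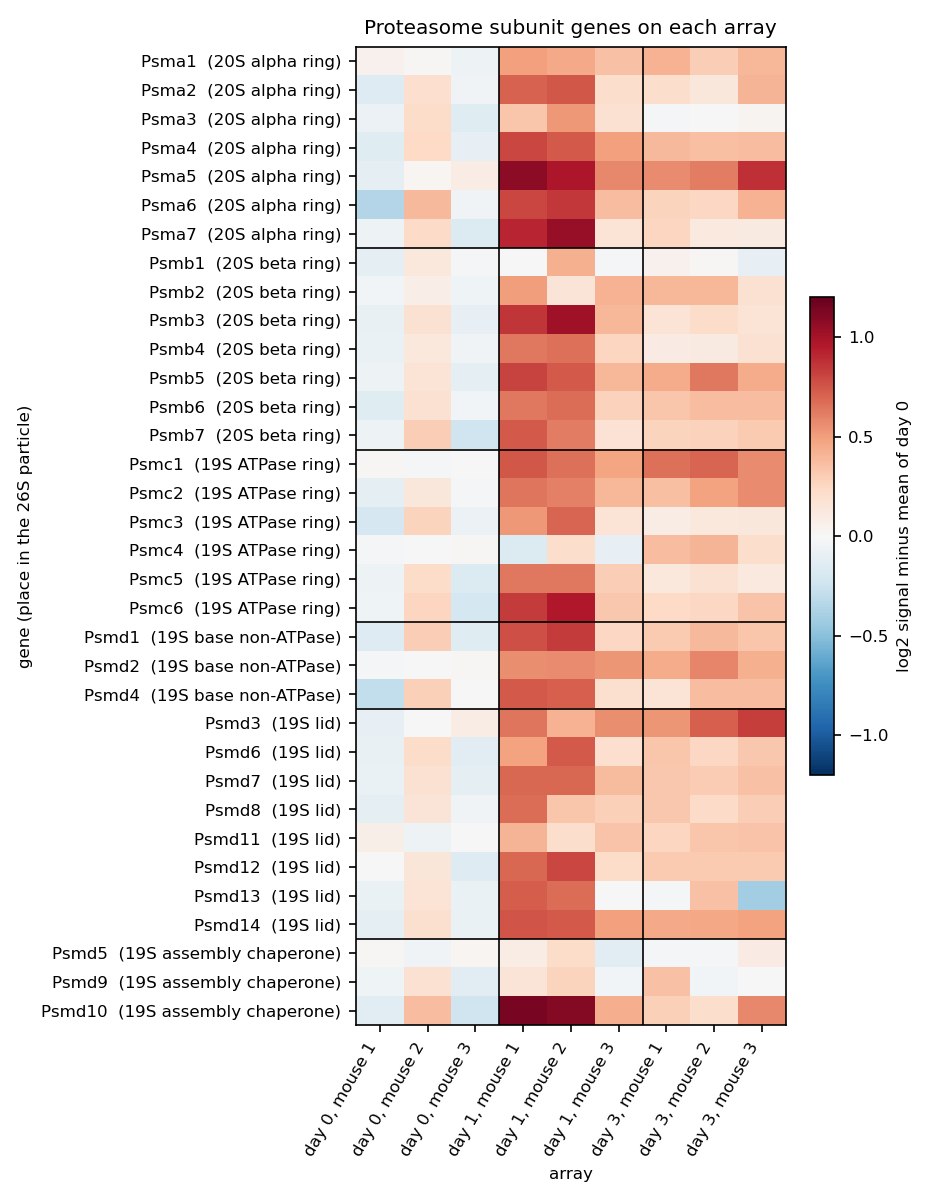
Heatmap of the log2 signal of the 34 proteasome subunit genes (rows, grouped by place in the particle) on the 9 arrays (columns), each minus the gene's mean on day 0; red is higher and blue lower. The columns of the first and second mouse of day 1 are the reddest, with means of 0.62 and 0.64, and the third mouse of day 1 has a mean of 0.28, near the day 3 mice.

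The number of genes called on day 1 depended on single arrays. Leaving out 1 array at a time left the median change of the 34 genes at 0.46 to 0.66 and gave 14 to 29 genes called higher, with 17 without replicate 1 of day 0, 14 without replicate 3 of day 0, 15 without replicate 1 of day 1 and 18 without replicate 2 of day 1. The 14 genes called in every such fit were Psma1, Psma4, Psma5, Psmb3, Psmb4, Psmb5, Psmb6, Psmc1, Psmc2, Psmc6, Psmd2, Psmd3, Psmd7 and Psmd14. The 15 that lost the call at least once were Psma2, Psma3, Psma6, Psma7, Psmb2, Psmb7, Psmc3, Psmc5, Psmd1, Psmd4, Psmd6, Psmd8, Psmd10, Psmd11 and Psmd12. On day 3, Psma5, Psmc1, Psmc2, Psmd2, Psmd3 and Psmd14 kept the call in every such fit, and Psma1, Psma4, Psmb5 and Psmd11 lost it at least once. Without replicate 3 of day 0 the count on day 3 was 6. The calls over all genes in these fits are not given here, so the counts are not set against a share of all genes.

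The stretch of genome just before the start of 4 of these genes is printed here, because the promoters of proteasome genes are known to hold recurring motifs. All 4 were called higher on day 1 and hold a motif marked below, while many other genes of the group hold neither motif there. RefSeq promoters of GRCm38.p6, from 250 bases before to 50 after the gene start, were matched for 28 of the 34 genes by symbol, and Psmb1, Psmb2, Psmb7, Psmc3, Psmd3 and Psmd7 are missing. Shown are the 100 bases before the start, 5′ to 3′ on the gene's strand. Capitals mark the core of the antioxidant response element, TGACNNNGC, in Psmb5 (chr14:54617996-54618095, minus strand) and Psmb6 (chr11:70525257-70525356, plus strand). They mark the core bound by ETS factors, CCGGAAG, here read on the other strand as CTTCCGG, in Psmc1 (chr12:100110102-100110201, plus strand) and Psmd2 (chr16:20651552-20651651, plus strand). Psmd9, not printed, also holds TGACNNNGC in this stretch and was not called on day 1 (adjusted p 0.527).
Psmb5: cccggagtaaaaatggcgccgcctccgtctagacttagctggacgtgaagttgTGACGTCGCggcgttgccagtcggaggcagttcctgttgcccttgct
Psmb6: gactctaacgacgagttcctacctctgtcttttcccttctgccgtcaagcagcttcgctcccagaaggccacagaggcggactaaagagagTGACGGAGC
Psmc1: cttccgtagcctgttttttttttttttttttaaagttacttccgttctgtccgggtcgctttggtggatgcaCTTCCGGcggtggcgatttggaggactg
Psmd2: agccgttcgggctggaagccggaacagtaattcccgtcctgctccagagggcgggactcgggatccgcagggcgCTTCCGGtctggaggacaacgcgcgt

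Both strands of the windows were searched, and none of the 3 motifs searched holds another. The antioxidant response core was found in 5 of the 28 promoters (17.9%), those of Psmb5, Psmb6, Psmc6, Psmd9 and Psmd12, against 14% of all 27025 genes with a window and 16.9% of the 9539 tested genes with one. The box CCAAT was found in 11 (39.3%), against 41.1% and 42.5%. The ETS core was found in 10 (35.7%), those of Psma6, Psmc1, Psmc2, Psmc6, Psmd2, Psmd4, Psmd6, Psmd11, Psmd12 and Psmd13, against 9.93% of all genes and 19.5% of tested genes. These matches describe letters in a window and not sites in use, and no test was made of the shares.

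The 7 alpha genes, which build the outer rings and the gate, were all called higher on day 1, with a median change of 0.67. Their changes ran from 0.34 for Psma3 to 0.87 for Psma5. Psma5 had signals of 3068, 3361 and 3530.5 on day 0, of 6979.9, 6499 and 4944 on day 1, and of 4908, 5067 and 6097 on day 3. Every array of days 1 and 3 lay above every array of day 0. The change was 0.87 ± 0.14 on day 1 (adjusted p 0.00117, the lowest of the 34 genes in this comparison) and 0.69 ± 0.14 on day 3 (adjusted p 0.00439). A second probe set of Psma5 had a change of 1.02 on day 1 and of 0.50 on day 3.

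Psma7 had one of the larger changes on day 1, 0.71 ± 0.20 (adjusted p 0.0212), with signals of 7411, 8109 and 4407 against 3751, 4601 and 3503 on day 0. The third mouse of day 1 lay among the day 0 mice, so the groups overlapped. On day 3 its change was 0.16 ± 0.20 (adjusted p 0.584). Psma4 rose by 0.68 ± 0.12 on day 1 and 0.37 ± 0.12 on day 3, without overlap on either day. Psma1 rose by 0.43 ± 0.09 and 0.37 ± 0.09. Psma6 and Psma2 had changes of 0.67 ± 0.18 and 0.56 ± 0.15 on day 1, and neither was called on day 3.

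Psma3 had the smallest change of the alpha genes in both comparisons with day 0. Its signals were 8366, 10254 and 7970.1 on day 0, 11100.4, 12609 and 10006 on day 1, and 8642, 8767 and 9031 on day 3. The lowest day 1 mouse lay below the highest day 0 mouse, while every day 3 mouse lay below every day 1 mouse. Its change was 0.34 ± 0.12 on day 1 (adjusted p 0.0451), 0.00 ± 0.12 on day 3 (adjusted p 0.999) and -0.34 ± 0.12 between days 1 and 3 (adjusted p 0.0698).

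Of the 7 beta genes, 6 were called higher on day 1 and only Psmb5 on day 3. Psmb5, Psmb6 and Psmb7 carry the protease sites, which cut after hydrophobic, acidic and basic residues. Psmb5 had signals of 2271, 2646 and 2193 on day 0, of 4157, 3940.2 and 3113 on day 1, and of 3217, 3655 and 3209.5 on day 3. Both later days lay wholly above day 0. Its change was 0.65 ± 0.13 on day 1 (adjusted p 0.00476) and 0.51 ± 0.13 on day 3 (adjusted p 0.0159). Psmb6 had changes of 0.52 ± 0.13 on day 1 (adjusted p 0.0125) and of 0.36 ± 0.13 on day 3 (adjusted p 0.0611). Psmb7 had changes of 0.51 ± 0.16 (adjusted p 0.0384) and 0.28 ± 0.16 (adjusted p 0.227), and its days overlapped in both comparisons.

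Psmb3 and Psmb4, beta subunits without a protease site, were the genes called lower from day 1 to day 3. Only 3 of the 34 genes had a change above 0 between these days. Psma7, with a change of -0.55, was not called (adjusted p 0.0841). Psmb3 had signals of 2021, 2449 and 2016 on day 0, of 3911, 4347 and 2833 on day 1, and of 2417, 2502 and 2416 on day 3. The day 3 mice overlapped day 0, and all mice of day 1 lay above both other days. The gene rose by 0.76 ± 0.15 on day 1 (adjusted p 0.00463) and fell by 0.57 on the log2 scale from day 1 to day 3 (SE 0.15, adjusted p 0.0284), and on day 3 it differed from day 0 by 0.18 ± 0.15 (adjusted p 0.405).

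Psmb4 had signals of 7009, 8104 and 7197 on day 0, of 11517, 11762 and 8862 on day 1, and of 7926, 7979 and 8398 on day 3. Each day 1 mouse lay above each mouse of the other days. It rose by 0.52 ± 0.12 on day 1 (adjusted p 0.00842) and had a change of -0.39 ± 0.12 from day 1 to day 3 (adjusted p 0.0453). Neither call between days 1 and 3 held without single arrays: that of Psmb3 was lost without replicate 1 or 2 of day 1 or any array of day 3. That of Psmb4 was lost without any of these or replicate 1 or 3 of day 0. Without replicate 3 of day 1 the count of genes called lower was 13, and the calls over all genes in that fit are not given here. Psmb2 had changes of 0.36 ± 0.12 on day 1 (adjusted p 0.0445) and 0.33 ± 0.12 on day 3 (adjusted p 0.066). Psmb1 had changes of 0.14 ± 0.13 and -0.01 ± 0.13, and was the one beta gene not called on day 1 (adjusted p 0.446).

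**Figure D3:**
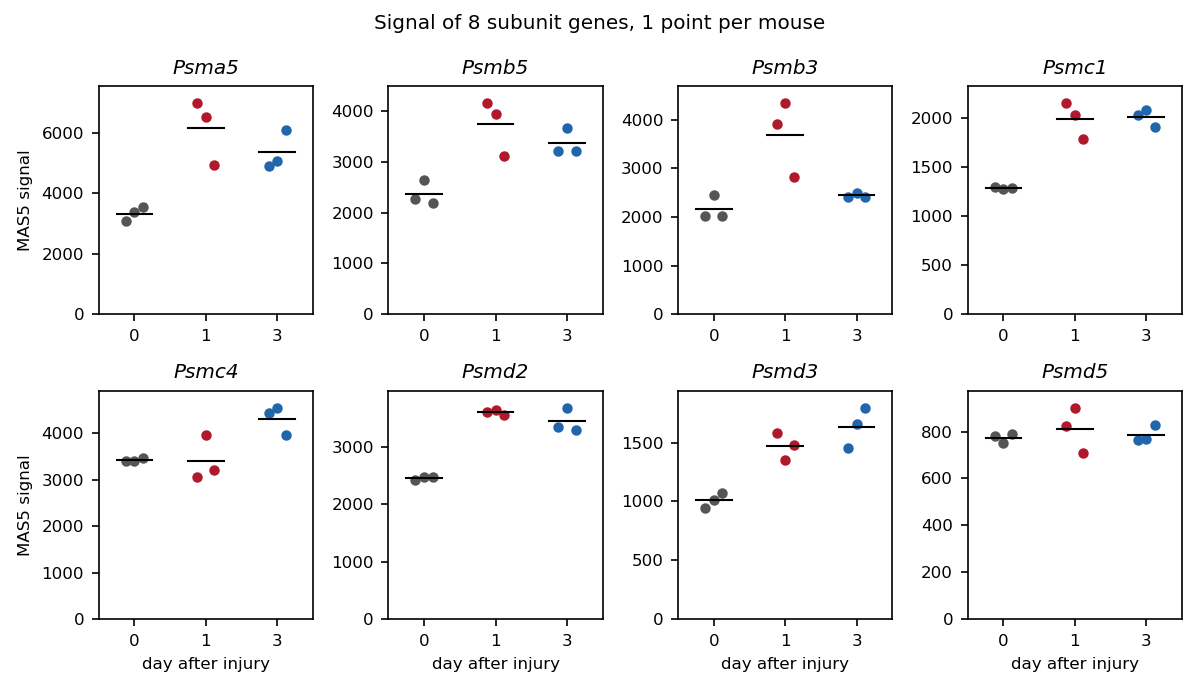
MAS5 signal (linear axis from 0) of Psma5, Psmb5, Psmb3, Psmc1, Psmc4, Psmd2, Psmd3 and Psmd5 by day after injury, 1 point per mouse and a line at the mean of 3 mice. Psma5, Psmb5, Psmc1, Psmd2 and Psmd3 lie above day 0 on both later days, Psmb3 is high on day 1 alone, Psmc4 is high on day 3 and Psmd5 overlaps on all days.

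Of the 6 ATPase genes, 5 were called higher on day 1 and Psmc1 and Psmc2 also on day 3. Psmc1, whose tail helps to open the gate, had signals of 1299.7, 1273 and 1284 on day 0, of 2155, 2028 and 1787 on day 1, and of 2036, 2085 and 1909 on day 3. Days 1 and 3 overlapped with each other and lay far above day 0. The change was 0.63 ± 0.11 on day 1 (adjusted p 0.00195) and 0.64 ± 0.11 on day 3 (adjusted p 0.00145, the lowest of the 34 genes on that day). From day 1 to day 3 it was 0.02 ± 0.11 (adjusted p 0.933). Psmc2 had changes of 0.55 ± 0.11 on day 1 and 0.47 ± 0.11 on day 3.

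Psmc6, Psmc5 and Psmc3 were called on day 1, with changes of 0.71 ± 0.17, 0.52 ± 0.13 and 0.46 ± 0.15, and not on day 3, where they were 0.28, 0.14 and 0.12. Psmc4 was called in none of the comparisons. Its signals were 3403, 3412 and 3461 on day 0, 3055, 3973 and 3209 on day 1, and 4441, 4555 and 3957 on day 3. The day 1 mice lay on both sides of day 0, and all day 3 mice lay above day 0. The changes were -0.01 ± 0.12 on day 1 (adjusted p 0.934), 0.33 ± 0.12 on day 3 (adjusted p 0.0567) and 0.35 ± 0.12 between days 1 and 3 (adjusted p 0.0695). The 2 probe sets of Psmc4 disagreed on day 1: the second, with a mean signal of 2194, had a change of 0.48 ± 0.12 (adjusted p 0.0169), and on day 3 of 0.35 ± 0.12.

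The other genes of the base, Psmd1, Psmd2 and Psmd4, were all called higher on day 1. Psmd2, a scaffold to which ubiquitin shuttles dock, had signals of 2423, 2463 and 2475 on day 0, of 3602, 3641 and 3546 on day 1, and of 3344, 3676 and 3294 on day 3. The mice of day 0 and of day 1 lay close to each other, those of day 3 less so, and both later days stood clear of day 0. Its change was 0.55 ± 0.09 on day 1 (adjusted p 0.00176) and 0.49 ± 0.09 on day 3 (adjusted p 0.00329). Psmd1, the scaffold of the base, had signals of 2326, 3178 and 2346 on day 0, of 4411, 4644 and 3083 on day 1, and of 3228, 3389.7 and 3262 on day 3. One day 1 mouse lay below the highest day 0 mouse, and all day 3 mice lay above day 0. It had changes of 0.62 ± 0.17 (adjusted p 0.018) and 0.35 ± 0.17 (adjusted p 0.147). Psmd4, a ubiquitin receptor, had changes of 0.55 ± 0.17 on day 1 (adjusted p 0.0362) and 0.30 ± 0.17 on day 3 (adjusted p 0.226), with overlap on both days.

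Of the 8 lid genes, 7 were called higher on day 1, and Psmd3, Psmd11 and Psmd14 on day 3. Psmd14 is the enzyme that cuts off the ubiquitin chain. Its signals were 3349, 4139 and 3415 on day 0, 6094, 6039 and 5101 on day 1, and 4943, 4994 and 5039.7 on day 3. The 3 days did not overlap, with day 1 highest. The change was 0.66 ± 0.11 on day 1 (adjusted p 0.00182), 0.46 ± 0.11 on day 3 (adjusted p 0.0115) and -0.20 ± 0.11 between them (adjusted p 0.258). Psmd7, its partner without enzyme activity, had changes of 0.59 ± 0.13 (adjusted p 0.00655) and 0.33 ± 0.13 (adjusted p 0.076).

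Psmd3 had signals of 944, 1011 and 1076 on day 0, of 1579, 1348 and 1481 on day 1, and of 1454, 1659 and 1797 on day 3. Both later days lay above day 0 and overlapped each other. Its change was 0.54 ± 0.12 on day 1 (adjusted p 0.00846) and 0.69 ± 0.12 on day 3 (adjusted p 0.00189), the largest of the 34 genes on day 3. Psmd11 rose by 0.32 ± 0.10 and 0.31 ± 0.10 with its brightest probe set, and none of its other probe sets was called on either day. Those with mean signals of 1718, 1408 and 1181 had day 1 changes of 0.01, 0.41 and 0.14 (adjusted p 0.962, 0.0523 and 0.577). On day 3 these were 0.30, 0.23 and 0.30. With their brightest probe sets, Psmd6, Psmd8 and Psmd12 were called on day 1 alone, with changes of 0.47, 0.43 and 0.57. A second probe set of Psmd6 was about as bright, with a mean signal of 3510 against 3522. Tested on its own it was also called on day 3, with a change of 0.44 (adjusted p 0.0267).

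Psmd13 was the lid gene not called on day 1. Its signals were 913, 1082 and 913 on day 0, 1594, 1539 and 968 on day 1, and 957, 1232 and 724 on day 3. The third mouse of day 1 lay within the day 0 range, and the day 3 mice reached both below and above that range. The change was 0.47 ± 0.22 on day 1 (adjusted p 0.128) and -0.03 ± 0.22 on day 3 (adjusted p 0.942).

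Psmd5, Psmd9 and Psmd10 are chaperones that bind the ATPases while the base is assembled and leave the finished particle. Psmd10, also known as gankyrin, had signals of 569, 799.9 and 524 on day 0, of 1363, 1333 and 839 on day 1, and of 756, 718 and 925 on day 3. All day 1 mice lay above day 0, the third only just, and day 3 overlapped day 0. Its change of 0.89 ± 0.21 on day 1 (adjusted p 0.0108) was the largest of the 34 genes, and on day 3 it was 0.36 ± 0.21 (adjusted p 0.24). Psmd5 and Psmd9 had changes of 0.06 ± 0.12 (adjusted p 0.717) and 0.13 ± 0.15 (adjusted p 0.527) on day 1, and of 0.02 and 0.11 on day 3.

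**Figure D4:**
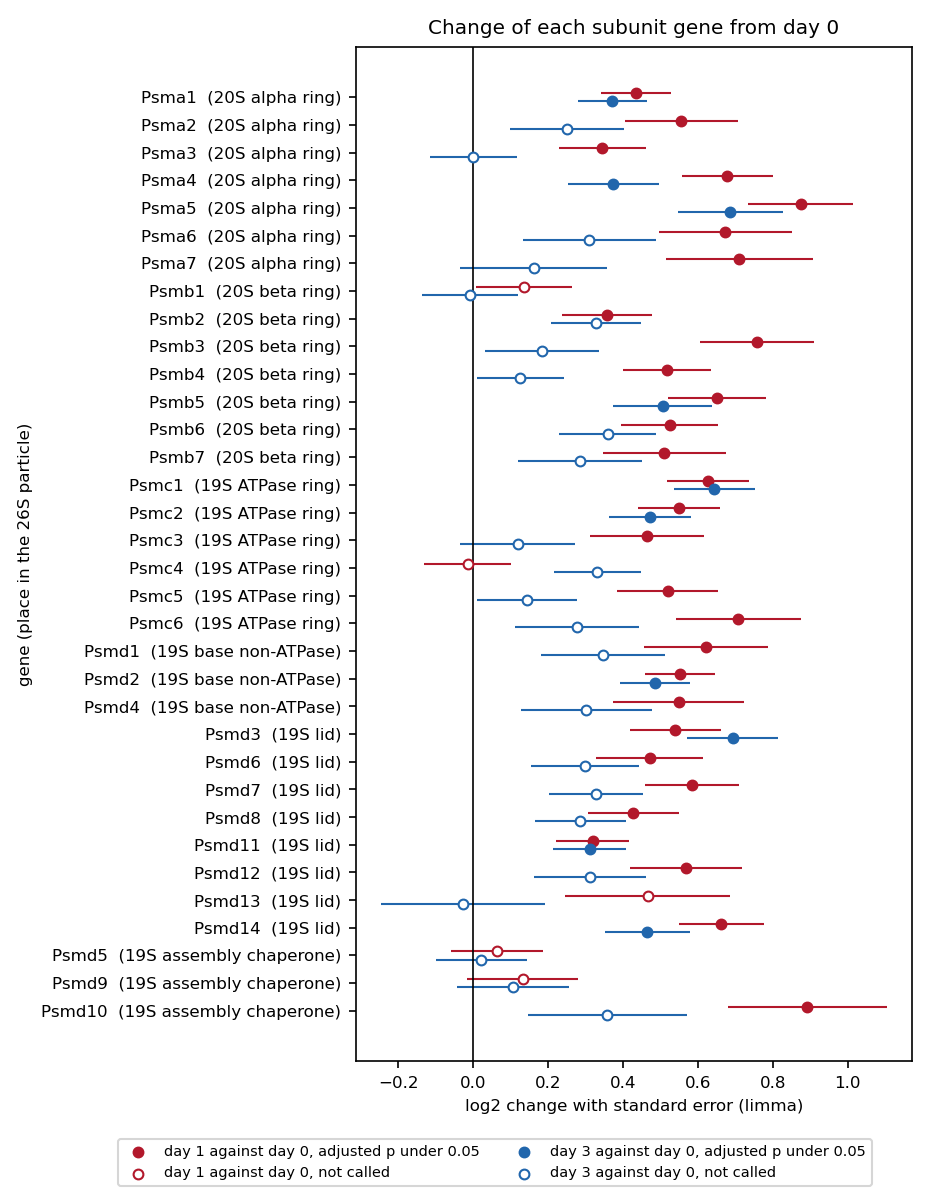
Log2 change from day 0 of each of the 34 genes (rows, grouped by place in the particle) with limma's SE, red for day 1 and blue for day 3; filled points have an adjusted p under 0.05. Red points lie right of blue for all but Psmc1, Psmc4 and Psmd3, and 29 red and 10 blue points are filled.

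Several genes have more than 1 probe set. Tested one by one among 21283 probe sets, 39 of the 61 that passed were called higher on day 1, against 9.02% of all, and 1 was called lower, against 16.1%. The probe set called lower was the second probe set of Psmd9, with a mean signal of 64.2, for which the day 1 value was -0.72 (adjusted p 0.0467) and every day 1 array lay below day 0. Of the 27 probe sets that were not the brightest of their gene, 10 were called higher on day 1. A second probe set of Psma5, with a mean signal of 2582, had a day 1 change of 1.02 (adjusted p 0.000224), just over 2-fold, and on day 3 it was called lower than on day 1 by a change of -0.52 (adjusted p 0.0228). Those that went the other way than the brightest on day 1, other than that of Psmc4, had mean signals of 325 or less. Psma6 is represented by a probe set that can share sequence with other genes, and its other bright probe set, with a mean signal of 5787, had a change of 0.58 on day 1 and 0.41 on day 3 and was called on both (adjusted p 0.00865 and 0.0403).

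Psmb8, Psmb9 and Psmb10 replace Psmb5, Psmb6 and Psmb7 in the immunoproteasome, whose amount interferon signaling can raise. Psmb8 had signals of 4191, 4891 and 4293 on day 0, of 5932, 6487 and 5812 on day 1, and of 3452, 2707 and 3794 on day 3. The days did not overlap, with day 1 above and day 3 below day 0. It had changes of 0.45 ± 0.13 on day 1 (adjusted p 0.0256), of -0.44 ± 0.13 on day 3 (adjusted p 0.0292) and of -0.89 ± 0.13 between them (adjusted p 0.00138). Both calls against day 0 were lost without single arrays and with the mean of its probe sets, that of day 1 also with quantile normalization, and the call between days 1 and 3 was not.

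Psmb9 had signals of 3758, 4109.6 and 3892 on day 0, of 3219, 3308 and 4226 on day 1, and of 2524, 1809.5 and 2465 on day 3. Day 1 overlapped day 0, and day 3 lay below both. Its changes were -0.14 ± 0.15 on day 1 (adjusted p 0.498) and -0.81 ± 0.15 on day 3 (adjusted p 0.00248). Psmb10 had changes of 0.30 ± 0.17 and -0.08 ± 0.17 and was called on neither day (adjusted p 0.189 and 0.769).

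Within each array, the difference of log2 signal between an immunoproteasome subunit and its constitutive counterpart was taken, so that a shift common to both cancels. For Psmb8 less Psmb5 it moved by -0.20 on day 1 and by -0.94 on day 3. For Psmb9 less Psmb6 it moved by -0.66 and -1.16, and for Psmb10 less Psmb7 by -0.21 and -0.36. Arrays of days 0 and 3 did not overlap for the first and second pair. With 3 arrays against 3 an exact two-sided permutation test cannot give a p under 0.1. These 2 pairs reached that p on day 3 against day 0, and Psmb9 less Psmb6 also on day 1. From day 1 to day 3 both reached it as well, with moves of -0.74 for Psmb8 less Psmb5 and -0.50 for Psmb9 less Psmb6. Over the 9 tests made, all by exact permutation, the adjusted p was 0.18 or more.

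**Figure D5:**
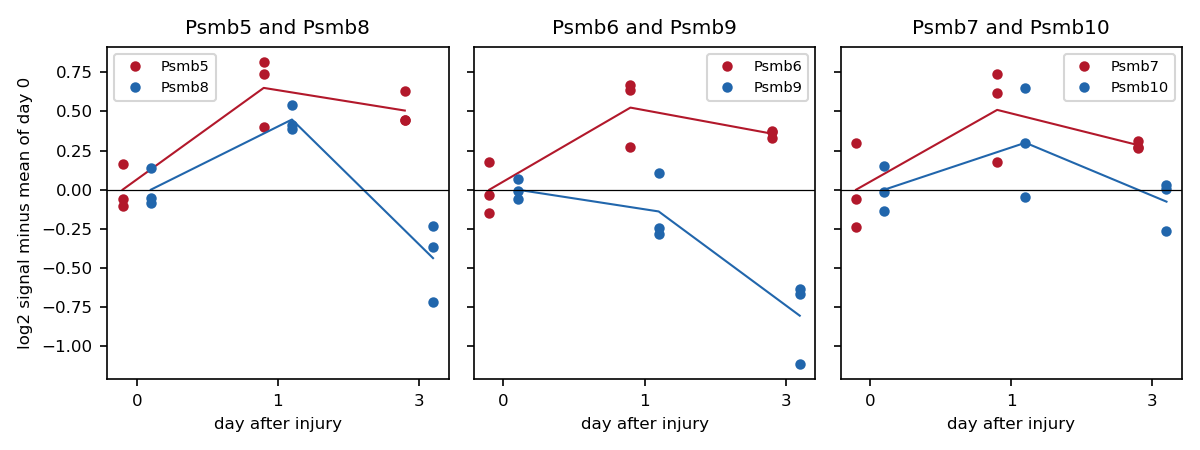
Log2 signal minus the day 0 mean of each constitutive protease subunit (red) and its immunoproteasome counterpart (blue), 1 point per mouse, lines through the means of 3 mice. Psmb5, Psmb6 and Psmb7 stand at 0.51, 0.36 and 0.28 on day 3, and Psmb8, Psmb9 and Psmb10 at -0.44, -0.81 and -0.08.

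Of the genes for assembly of the core, 1 of 5 was called on day 1 and 0 on day 3. This was Pomp, which matures the core, with a change of 0.68 ± 0.18 (adjusted p 0.0191) on day 1, in overlapping groups. Psmg1, Psmg2, Psmg3 and Psmg4, which pair up to build the alpha ring, had changes of 0.25, -0.05, 0.49 and 0.25 and were not called. Sem1, a small lid protein whose name the rule does not match, had changes of 0.56 ± 0.14 on day 1 (adjusted p 0.0144) and 0.30 ± 0.14 on day 3 (adjusted p 0.142). The calls of Pomp and Sem1 were each lost without any 1 of replicates 1 and 3 of day 0 and replicates 1 and 2 of day 1. Adrm1, another ubiquitin receptor of the base, was not analysed here.

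Of the 4 activators and inhibitors tested, Psme3 was the one called on day 1 and Psme1 the one called on day 3. Psme1, an activator cap induced by interferon, had signals of 8936, 9780.0 and 8822 on day 0, of 9383, 8541 and 10731 on day 1, and of 6610.3, 5946 and 6809.7 on day 3. Day 3 lay below both other days, which overlapped. It had changes of -0.51 ± 0.11 on day 3 against day 0 (adjusted p 0.00501) and of -0.56 ± 0.11 against day 1 (adjusted p 0.00582). Psme3, the nuclear cap, had a change of 0.58 ± 0.16 on day 1 (adjusted p 0.0205), a call that was lost without single arrays of days 0 and 1. Psme4, another cap, had changes of 0.38 and 0.40 on days 1 and 3 (adjusted p 0.0692 and 0.0626), and Psmf1, an inhibitor of the core, of -0.12 and 0.07. Psme2 was not analysed here.

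Nfe2l1, the transcription factor that raises proteasome genes, had signals of 1648, 1956 and 1905 on day 0, of 1256, 1281 and 1409.5 on day 1, and of 1543, 1492 and 1339 on day 3. All later arrays lay below day 0. Its RNA fell by 0.48 on the log2 scale on day 1 (SE 0.12, adjusted p 0.0121), and on day 3 it had a change of -0.33 ± 0.12 (adjusted p 0.0567). The RNA level does not measure the protein, which is controlled by its own breakdown. Nfe2l2, the factor of the oxidative stress response, had changes of 0.26 ± 0.10 on day 1 (adjusted p 0.0718) and 0.21 ± 0.10 on day 3 (adjusted p 0.14). In the list of 9 tested genes for such factors and their processing, 1 was called higher and 1 lower on day 1, and 1 higher and 2 lower on day 3. The small Maf partner Mafk had a change of -0.65 ± 0.10 on day 3 (adjusted p 0.000861), and Ngly1, an enzyme in the processing of Nfe2l1, of -0.43 ± 0.10 (adjusted p 0.00924). Maff, another small Maf protein, had a change of -0.71 ± 0.17 from day 1 to day 3 (adjusted p 0.0164), a call that was lost without any 1 of the day 3 arrays.

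Of 11 tested proteins that work at the proteasome, 3 were called higher and 1 lower on day 1, and 2 higher on day 3. Txnl1, a redox protein bound to the cap, had changes of 0.55 ± 0.12 on day 1 (adjusted p 0.00705) and 0.48 ± 0.12 on day 3 (adjusted p 0.0129). Usp14, which trims ubiquitin on the cap, had changes of 0.13 ± 0.10 on day 1 (adjusted p 0.374) and 0.59 ± 0.10 on day 3 (adjusted p 0.00195). The day 3 calls of both were lost with the mean of their probe sets, and that of Txnl1 also without replicate 2 of day 3. Akirin2, which brings proteasomes into the nucleus, had changes of -0.57 ± 0.13 on day 1 (adjusted p 0.0102) and -0.21 ± 0.13 on day 3 (adjusted p 0.284). Of the ubiquitin genes and activating enzymes listed, only Uba6 was analysed, and it had changes of 0.22 ± 0.12 and 0.24 ± 0.12 (adjusted p 0.187 and 0.164).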

How the data were processed

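RNA of 9 SVF samples, 3 mice a day, was measured on Affymetrix mouse arrays. The authors' deposited signals are intensities on a linear scale, computed with MAS5 (version not given in the sources used here) and each array scaled to a mean of 500 after trimming 2% of probe sets at each end. The deposited files also hold a detection p-value and, in another column, the detection call made from it by the authors. The depth of an array is not counted in reads, and the 3 arrays a day limit the precision. Gene names came from the platform annotation.

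Signals were log2-transformed without an offset. Each gene was represented by its brightest probe set among those with a present call on the 3 arrays of some day. All 9 arrays were fitted with limma 3.58.1 in R 4.3.3 (lmFit, contrasts.fit, eBayes with a variance trend), two-sided, with Benjamini-Hochberg adjustment over 11796 genes. This main fit has no replicate block, since different mice were used each day. On simulated data for day 1 against day 0, 200 of 11796 genes were changed, over 10 draws. The fit called 22.4% of those with a log2 change of 0.5 and 69.8% of those with a change of 1, with 4.92% false calls. The measured comparison had far more calls, 1268 higher and 2110 lower, so its Benjamini-Hochberg limit on p was looser. The simulated shares therefore do not tell how many changed proteasome genes would be called, or what share of their calls is false. Pairs of subunits were compared by an exact permutation test in R. Promoters were searched with Python 3.11.15 and pandas 2.3.3, and figures were drawn with matplotlib 3.10.9.

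Named are all genes the rule found, with values per array for those with the lowest adjusted p in each comparison and group of subunits. Of other pathway genes, those fixed by name and up to 3 called members of each remaining list are named. The members, lists and tests were chosen with earlier results of these data known. The alternatives were other normalizations, filters, probe set rules, an added offset of 16, no variance trend, fewer arrays, a replicate block, a one-way analysis of variance with a 2-fold limit and a 2-fold limit alone. Probe sets one by one and the repeated-measurements analysis of variance that the methods name, with the replicate number as the subject, were added after seeing the data.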

Additional observations from a re-analysis of the deposited data

Results flagged for a closer look

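For 2 genes, the change from day 0 differed between day 1 and day 3 by the test of that difference. It was -0.57 for Psmb3 and -0.39 for Psmb4 (log2, limma, adjusted p 0.0284 and 0.0453), and neither held when single arrays were left out.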

How the results depend on the processing

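The 34 genes' median change stayed above 0 for day 1 (0.46 to 0.66) and day 3 (0.26 to 0.40) against day 0, and below 0 for day 3 against day 1 (-0.35 to -0.14), under every normalization, filter, probe set rule and array set tried. Scaling moved the median of all genes on day 1, from -0.13 to -0.01 under median centring and -0.04 under quantile normalization. It also moved the calls over all genes on day 1 from 1268 higher and 2110 lower to 1699 and 1272, and 1397 and 1500. From day 1 to day 3 the centring moved them from 1140 higher and 536 lower to 659 and 860. Of the 29 proteasome genes called higher on day 1, 8 lost the call with quantile normalization and none with median centring. With only the 6 arrays compared 8 lost it, and without a variance trend 7. With the mean of the probe sets 5 lost it, and with no filter 5. The calls over all genes in these last 4 settings are not given here. A limit of 2-fold, with limma or with either analysis of variance, left 0 proteasome genes called in each comparison and direction, since the brightest probe set of none changed that much. Without that limit, over the 3 days, the one-way analysis of variance gave 22 of the 34 genes at an unadjusted p under 0.05 and 12 after adjustment. Among all 11796 genes it gave 5129 and 2760. The methods name a repeated-measurements analysis, here with the replicate number as the subject although the mice differed. It gave 20 and 3 of the 34 genes, and 4549 and 1060 of all genes. After its adjustment the share of the 34 genes was about that of all genes.

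Day 3 against day 0 gave 16 genes higher with only the 6 arrays compared. Day 3 against day 1 gave 1 lower with quantile normalization (and 1 higher), no filter, the mean of the probe sets or only the 6 arrays compared, 0 without a variance trend, and 4 with median centring or the replicate block. The block made no difference of over 1.5 times elsewhere, and same-numbered mice of different days did not deviate together (correlations -0.15 to 0.33). Leaving out single arrays gave 14 to 29 genes higher on day 1, 6 to 14 on day 3, and 0 to 13 lower and 0 to 1 higher between them. The calls over all genes in the fits with fewer arrays are not given here. Such counts therefore do not tell a change in these genes from a change in the calls over all genes. Psmb10 less Psmb7 ranged from -0.55 to 0.016 on day 1 and from -0.38 to 0.19 between days 1 and 3. Without day 1 replicate 2 and day 1 replicate 3 these were positive.

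Probe sets one by one gave 1 gene lower on day 1, Psmd9 at -0.72. In 8 genes on day 1 a further probe set had the opposite sign to the brightest: Psmd9, Psma1 (-0.35), Psma3 (-0.31), Psma6 (-0.15 and -0.10), Psmb1 (-0.071), Psmc2 (-0.26), Psmc4 (0.48) and Psmd13 (-0.49). On day 3 there were 9: Psma1 (-0.41, -0.38 and -0.48), Psma3 (-0.53), Psma5 (-0.19), Psma6 (-0.038), Psmc2 (-0.16), Psmc6 (-0.017), Psmd9 (-0.55), Psmd11 (-0.066) and Psmd13 (0.21). From day 1 to day 3 there were 7. On day 3 the mean of its probe sets gave Psma1 -0.22. The cause was not tested. Dim probe sets limit what can be measured.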
